A study of Mus musculus with 6 samples.

Results

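The matrix metalloproteinases (MMP), the membrane-anchored ADAM proteases, the secreted ADAMTS proteases with their non-catalytic ADAMTS-like (ADAMTSL) relatives, and the tissue inhibitors of metalloproteinases (TIMP) were followed in TNFα-treated B16F10 cells, a mouse melanoma line. Members were taken by gene symbol, which gave 60 of the 14915 symbols in the expression table: 17 MMP, 17 ADAM, 17 ADAMTS, 5 ADAMTSL and 4 TIMP genes. S127A cells carried the ZBTB5-S127A genotype, in which a serine of the transcription factor ZBTB5 is replaced by alanine so that it cannot be phosphorylated, and WT cells were the wild-type control. Both groups are labelled B16F10, a label that the marker values below put in doubt for S127A. Both groups received TNFα with amino acid limitation and had 3 RNA-seq libraries each, and no untreated library was analysed here. The design describes 1 established S127A line, and how many clones it holds is not given in the sources used here. Gene-level values cannot show whether the substitution is present. Nor is it said whether replicates were separate cultures, so every p-value below speaks of the scatter among these libraries and that scatter may be technical.

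As background, MMPs are zinc-dependent endopeptidases that cut collagens and other matrix proteins. They are made as inactive precursors, are switched on by removal of a propeptide and are blocked by TIMPs. ADAMs cut the outer parts of membrane proteins, which releases cytokines, growth factors and adhesion molecules from the cell surface, and ADAMTS enzymes act on proteoglycans, procollagens and other secreted proteins. In melanoma these enzymes are known for their part in invasion, and the genes of several secreted MMPs are classical targets of AP-1, the FOS and JUN transcription factors that inflammatory cytokines activate.

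Levels are in TPM (transcripts scaled to a fixed library total), a unit scaled for gene length and library total, so levels of different genes can be set side by side. The columns of the table summed to 831872 ± 1326 TPM in S127A and 863992 ± 903 TPM in WT (SD, n = 3 each), and TPM keeps no depth, so no counting error could be given. As a check of the label, the 12 melanocyte markers summed to between 115 and 124 TPM in the 3 S127A libraries, against 19321 to 19507 TPM in the 3 WT libraries, and 12 of 12 were lower in S127A. Of all tested genes 40.2% were higher and 49.8% lower. TYR, SOX10, RAB38, SLC45A2, OCA2 and MC1R passed the filter for testing, given below, only through WT. Among the other markers CD14 and KRT18 passed it only through S127A and POSTN only through WT. No melanocyte marker was at 0 in all 3 libraries of a group, though OCA2 stood at 0.04, 0 and 0 TPM in S127A. The S127A values go against the melanoma label, and gene-level values cannot settle whether both groups are the same line. A difference between lines and an effect of the substitution therefore cannot be told apart in any comparison below. The 10 fibroblast markers listed summed to between 301 and 313 TPM in S127A and between 16.2 and 17.2 TPM in WT, most of it COL1A2 in S127A. Of 6 tested fibroblast markers 5 were higher and POSTN was lower, at 0.0667 ± 0.0231 TPM in S127A and 7.79 ± 0.912 TPM in WT. LUM and THY1 were listed at 0 in all 3 S127A libraries and DCN in all 3 WT libraries. The 9 immune markers listed summed to between 51.8 and 56.1 TPM in S127A, mostly CD14, and between 22.6 and 26.7 TPM in WT, where CD14 and S100A8 were among the markers listed at 0. Of 3 tested immune markers CD14 was higher and 2 were lower: CD74 averaged 2.74 ± 0.353 TPM in S127A and 16.6 ± 2.01 TPM in WT, and CD68 averaged 4.69 ± 0.409 TPM in S127A and 7.64 ± 0.601 TPM in WT. The 9 endothelial or epithelial markers listed summed to between 63.7 and 64.1 TPM in S127A, nearly all KRT18, and between 1.37 and 1.76 TPM in WT, where CDH5, KDR, TEK, KRT8 and KRT19 were listed at 0. The marker sums differed between the same groups that every result below compares, and the part of the markers in the results was not tested. In bulk samples such as these, fewer cells of a type and less RNA per cell cannot be told apart.

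A gene was tested if its mean over the 6 libraries reached 1 TPM, and 34 of the 60 members did. Of these 32 changed at an adjusted p under 0.05 by limma, of which 14 were higher in S127A and 18 lower, while ADAMTS7 and ADAMTSL5 missed the threshold. The background was nearly as high, since 90.0% of the 10348 genes tested across the table changed (40.2% higher and 49.8% lower). The share of members changed, 94.1%, lay near that background. By size, 25 of the 34 changed at least 2-fold, 10 higher and 15 lower, where 35.4% of all tested genes changed that much (15.5% higher and 19.9% lower). The filter lets through genes that are high in 1 group only. Their direction was fixed once they were tested and a large change is favoured, so 25 of 34 is descriptive only. Through S127A alone passed MMP13, MMP10, MMP3, MMP19, ADAM33, ADAMTS6 and ADAMTSL3. Through WT alone passed ADAM12, ADAM19, ADAMTS12, ADAMTS20, ADAMTSL2, MMP15, MMP2, MMP23B and TIMP3. Of all 60 members, tested or not, 7 reached 1 TPM on average in S127A only and 13 in WT only, against 18 in both. The median log2 difference, S127A minus WT, was −0.40 over the tested members and −0.12 over all tested genes. Fold changes are given on the log2(TPM + 1) scale, which understates the change of low genes.

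**Figure D1:**
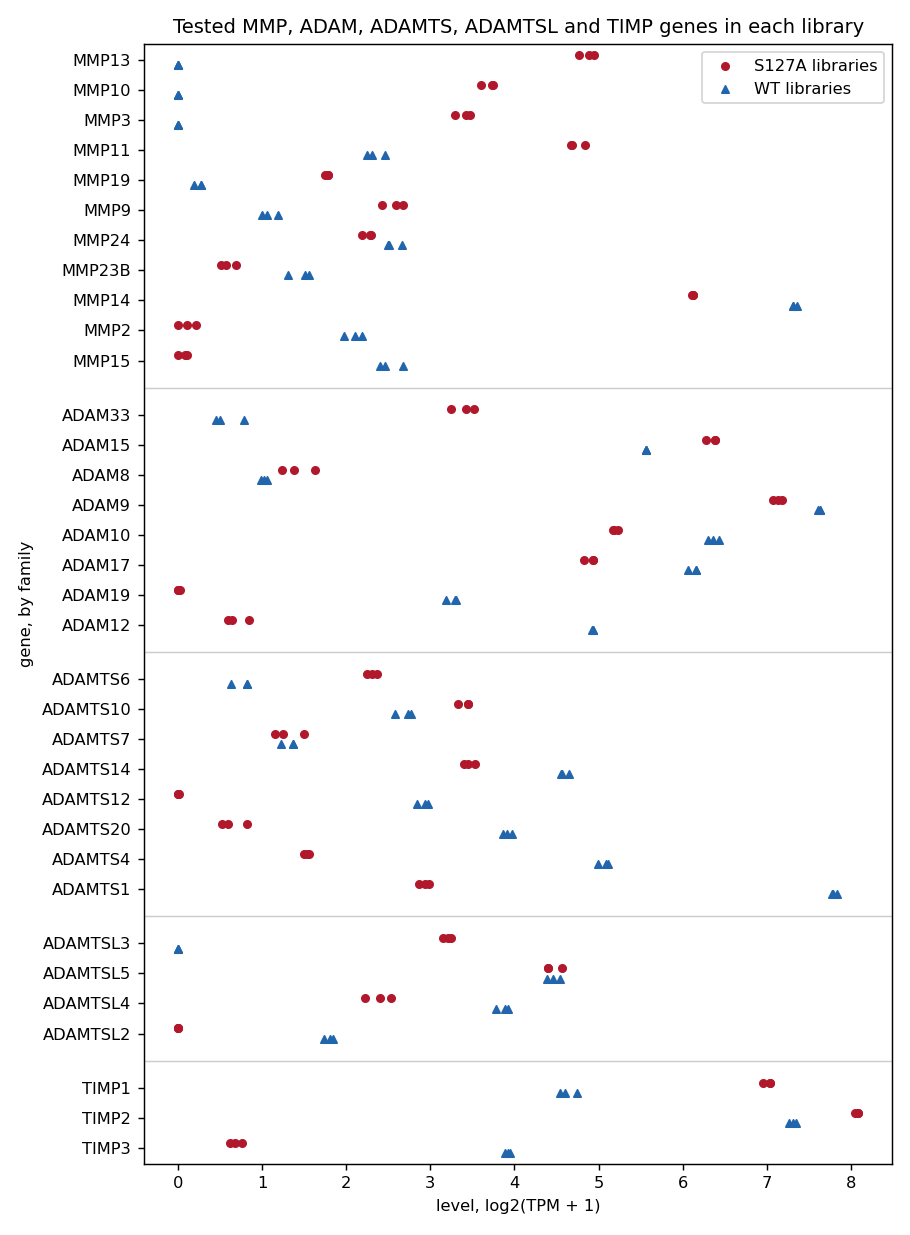
Level of each tested gene in each library, as log2(TPM + 1), with S127A libraries as circles above WT libraries as triangles and families separated by lines. For 32 of the 34 genes the 3 S127A values lie wholly above or below the 3 WT values, and ADAMTS7 and ADAMTSL5 overlap. Over all tested genes 90.2% did not overlap.

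The MMP repertoire differed in make-up between the groups while its total differed less. Summed over 17 genes, MMP transcripts stood at 156, 154 and 158 TPM in S127A and at 180, 183 and 177 TPM in WT. MMP14 made up 43.8% ± 0.393 of that sum in S127A and 88.4% ± 0.520 in WT (SD, n = 3 each). The 11 MMPs outside the membrane-type class together stood at 83.9 ± 2.02 TPM in S127A and at 10.5 ± 0.55 TPM in WT. These MMPs formed a larger part of the S127A sum, mainly through MMP13, MMP11, MMP10 and MMP3.

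Within the collagenases and stromelysins, 4 of 4 tested genes were higher in S127A, where 40.2% of all tested genes were higher. MMP13, MMP10 and MMP3 passed the filter only through S127A, so their direction was fixed once they were tested. MMP13, a collagenase that cuts fibrillar collagen, stood at 29.7, 26.3 and 28.5 TPM in S127A and was listed at 0 in all 3 WT libraries (adjusted p = 2.13e-13). MMP10, a stromelysin that cuts several matrix proteins and can activate other pro-MMPs, stood at 12.4, 12.3 and 11.1 TPM in S127A and was listed at 0 in all 3 WT libraries (adjusted p = 2.26e-12). MMP3, the stromelysin most like it, stood at 8.79, 10.1 and 9.71 TPM in S127A and was listed at 0 in all 3 WT libraries (adjusted p = 6.14e-12). All 3 genes were listed above 0 in every S127A library and in no WT library, so no fold is given. How reads that match both MMP3 and MMP10, which are close relatives, were assigned is not given in the sources used here. MMP11, a furin-activated stromelysin found mostly in stroma, stood at 24.8, 24.6 and 27.6 TPM in S127A and at 4.53, 3.74 and 3.95 TPM in WT. Its groups did not overlap and it rose by 2.39 on the log2 scale (SE of 0.0743, adjusted p = 9.88e-11). MMP11 shares 155 exon bases on the opposite strand with Chchd10, which stood at 2.15 TPM in S127A and at 289 TPM in WT, the other direction from MMP11.

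MMP13, MMP12, MMP3 and MMP10 lie in this order on 1 strand of chromosome 9, inside a cluster of MMP genes. In GENCODE's mm10 annotation Mmp13 spans chr9:7272514-7283331, Mmp3 chr9:7445822-7455975 and Mmp10 chr9:7502352-7510240, so Mmp10 starts 230 kb from the start of Mmp13. MMP12, a macrophage elastase between Mmp13 and Mmp3, stood at 0, 0 and 0.07 TPM in S127A and was listed at 0 in all 3 WT libraries. Of the listed genes of the cluster, 3 were thus present in S127A and 1 stayed near 0 in both groups. Of the cluster's other annotated genes, Mmp1b, Mmp8, Mmp27, Mmp20 and Mmp7 matched no symbol in the expression table and have no values here.

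**Figure D2:**
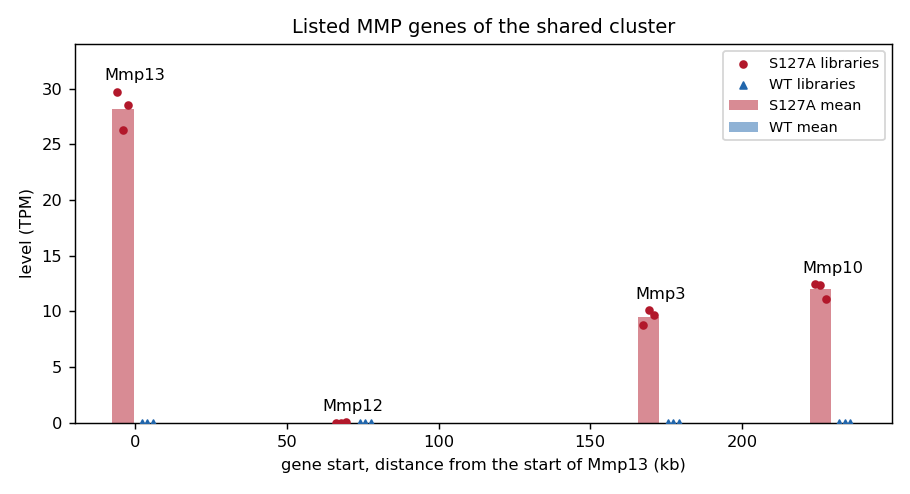
Level (TPM, linear axis from 0) of the 4 listed MMP genes of the chromosome 9 cluster against the distance of their starts from that of Mmp13 in kb. Bars are group means, S127A left of WT, and points are the libraries. Mmp13, Mmp3 and Mmp10 average 28.2, 9.53 and 11.97 TPM in S127A, WT points lie at 0, and Mmp12 stays near 0 in both groups.

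The bases before the annotated starts of these 4 genes are shown because each gene holds an AP-1 motif close to an annotated start, in Mmp12 the second. The sequences are the 250 bases before each RefSeq start on GRCm38.p6, plus strand, 5′ to 3′, from chr9:7272264-7272513 (Mmp13), chr9:7445572-7445821 (Mmp3), chr9:7502092-7502341 (Mmp10), chr9:7344147-7344396 (Mmp12, first of its 2 annotated starts) and chr9:7347124-7347373 (Mmp12, second start), and capitals mark TGANTCA, the AP-1 motif.
Mmp13: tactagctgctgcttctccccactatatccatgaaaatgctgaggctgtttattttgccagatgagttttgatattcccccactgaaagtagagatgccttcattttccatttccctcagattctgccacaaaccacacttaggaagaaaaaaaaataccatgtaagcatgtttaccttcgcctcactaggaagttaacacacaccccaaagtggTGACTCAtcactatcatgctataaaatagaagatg
Mmp3: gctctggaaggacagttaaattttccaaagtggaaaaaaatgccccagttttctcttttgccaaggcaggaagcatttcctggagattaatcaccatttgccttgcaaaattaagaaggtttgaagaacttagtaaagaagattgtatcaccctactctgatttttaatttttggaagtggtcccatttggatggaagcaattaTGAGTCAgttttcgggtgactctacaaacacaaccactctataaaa
Mmp10: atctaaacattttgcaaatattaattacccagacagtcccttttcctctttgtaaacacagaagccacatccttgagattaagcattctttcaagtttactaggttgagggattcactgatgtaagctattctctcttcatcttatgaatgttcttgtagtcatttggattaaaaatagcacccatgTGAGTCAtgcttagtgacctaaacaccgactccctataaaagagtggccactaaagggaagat
Mmp12 first start: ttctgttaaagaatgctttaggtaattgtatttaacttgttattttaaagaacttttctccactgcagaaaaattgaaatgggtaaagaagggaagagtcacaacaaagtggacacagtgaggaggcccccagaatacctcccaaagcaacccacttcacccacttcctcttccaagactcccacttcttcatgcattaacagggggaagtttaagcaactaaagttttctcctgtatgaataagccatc
Mmp12 second start: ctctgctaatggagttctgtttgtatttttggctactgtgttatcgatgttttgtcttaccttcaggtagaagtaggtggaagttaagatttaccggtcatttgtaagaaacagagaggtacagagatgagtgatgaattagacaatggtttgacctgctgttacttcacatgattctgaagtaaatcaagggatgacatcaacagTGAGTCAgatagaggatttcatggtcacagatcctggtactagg

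The motif began 35 bases before the start of Mmp13, 46 before that of Mmp3 and 63 before that of Mmp10. The letters TATAAA followed it in each, beginning 16, 7 and 29 bases before the start. The first Mmp12 window held neither, and the window of its second start, chr9:7347124-7347423, held TGAGTCA 44 bases before that start and TATAAA just after it. TGANTCA reads the same on both strands, and TATAAA, a motif added later than TGANTCA, was searched on the gene's strand only. TATAAA stood in 8.32% of all windows. RefSeq windows of 300 bases (250 before and 50 after the start) were matched for 36 of the 60 members. TGANTCA occurred in 5 of these 36 genes (13.9%), against 8.97% of all 27025 genes in the table. By window it stood in 12.8% of the members' 39 windows and in 7.81% of all 32851. It stood in 3 of 9 matched members that were higher in S127A (MMP13, MMP3 and MMP10) and in 1 of 13 that were lower (ADAM19). A match describes letters and not binding, and the lack of one says only that the letters are not in that window.

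AP-1 and other transcription factors known from MMP promoters were read from a list, chosen with earlier results of these data known. All 15 were tested, and 11 were higher and 4 lower in S127A, with a median log2 change of 0.86. FOSL1, FOSB and RUNX2 passed the filter only through S127A, so their direction was fixed once they were tested. Of all tested genes 40.2% were higher and 49.8% lower. FOSL1, an AP-1 subunit of invasive cells, stood at 397 ± 15.1 TPM in S127A and at 0.367 ± 0.112 TPM in WT (log2 change 8.19, SE 0.0643, adjusted p = 1.12e-14). JUNB averaged 224 ± 3.1 TPM in S127A and 29.4 ± 2.19 TPM in WT. The ETS factors ETV4 and ETS2 also rose, to 118 ± 9.07 and 67.6 ± 2.06 TPM in S127A against 3.40 ± 0.52 and 9.11 ± 0.65 TPM in WT. ETS1 fell, at 130 ± 3.19 TPM in S127A and 342 ± 5.65 TPM in WT. The other lower genes, named after their values were seen, were the AP-1 subunits JUN, JUND and FOS, so AP-1 subunits went in both directions. JUN averaged 45.2 ± 1.09 TPM in S127A and 64.2 ± 1.35 TPM in WT, and FOS averaged 1.18 ± 0.0961 TPM in S127A and 4.36 ± 0.705 TPM in WT.

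The gelatinases, which digest denatured collagen and basement membrane collagen, went in opposite directions at low levels. MMP9 stood at 4.37, 5.40 and 5.01 TPM in S127A and at 1.0, 1.29 and 1.09 TPM in WT, a rise of 1.48 on the log2 scale (SE of 0.0887, adjusted p = 2.88e-08). MMP2 stood at 0.16, 0.08 and 0 TPM in S127A and at 3.54, 2.93 and 3.29 TPM in WT, and fell by 1.98 on the log2 scale (SE of 0.0902, adjusted p = 2.67e-09). The groups did not overlap for either gene.

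Tested membrane-type MMPs, which sit on the cell surface, were all lower in S127A (3 of 3), where 49.8% of all tested genes were lower. Of the 6 listed, 3 were not tested, and MMP15 passed the filter only through WT. MMP14, which cuts collagen at the cell front and activates pro-MMP2, stood at 68.4, 67.8 and 68.6 TPM in S127A and at 158, 162 and 157 TPM in WT. Its log2 change was −1.21 (SE of 0.0302, adjusted p = 1.65e-11), and it was still the MMP with the highest level in both groups. MMP15 averaged 0.0467 ± 0.0416 TPM in S127A and 4.73 ± 0.58 TPM in WT. MMP24 averaged 3.77 ± 0.202 TPM in S127A and 4.90 ± 0.388 TPM in WT, a fall of 0.31 on the log2 scale (adjusted p = 0.00241). That call was lost with quantile normalization (−0.01, adjusted p = 0.895; range over 16 alternatives 0.00124 to 0.895). MMP24 shares 637 exon bases with BC029722 on the opposite strand.

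Of the remaining tested MMPs, MMP19 rose and MMP23B fell. MMP19 averaged 2.41 ± 0.0346 TPM in S127A and 0.187 ± 0.0404 TPM in WT, with 789 exon bases shared with the opposite-strand gene Tmem198b. MMP23B averaged 0.513 ± 0.0971 TPM in S127A and 1.76 ± 0.244 TPM in WT, and its symbol matched no mouse gene of the annotation. MMP17, MMP21, MMP28, MMP16 and MMP25 had means too low for testing, as did MMP12.

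Of the inhibitors, TIMP1 and TIMP2 were higher and TIMP3 was lower in S127A. TIMP1, a secreted inhibitor of most soluble MMPs that is induced by cytokines, stood at 123, 130 and 130 TPM in S127A and at 23.3, 25.7 and 22.3 TPM in WT. It rose 5.37-fold in TPM (log2 change 2.38, SE 0.0521, adjusted p = 5.65e-12). TIMP2, which inhibits MMPs and together with MMP14 takes part in pro-MMP2 activation, stood at 264, 270 and 271 TPM in S127A and at 158, 152 and 161 TPM in WT (log2 change 0.77, SE 0.0312, adjusted p = 9.99e-10). Both genes were higher in each S127A library than in any WT library.

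TIMP3, the matrix-bound inhibitor that also blocks ADAM17 and several ADAMTS enzymes, stood at 0.60, 0.69 and 0.54 TPM in S127A and at 14.2, 14.5 and 13.8 TPM in WT. Its log2 change was −3.24 (SE of 0.068, adjusted p = 4.00e-12). Its exons share 1733 bases with Syn3 on the opposite strand, which stood at 0.357 TPM in S127A and 1.19 TPM in WT. TIMP4 stood at 0.08, 0.04 and 0 TPM in S127A and was listed at 0 in all 3 WT libraries. It was not tested.

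Set against the enzymes in the same library, a ratio that scaling of the library does not alter, the summed TIMP level was 2.48, 2.60 and 2.53 times the summed MMP level in S127A and 1.08, 1.05 and 1.11 times in WT. That direction depended on counting the membrane-type MMPs. The TIMP sum was 396 ± 7.93 TPM in S127A and 195 ± 2.57 TPM in WT. The 11 MMPs outside that class summed to 83.9 ± 2.02 TPM in S127A and 10.5 ± 0.55 TPM in WT. Against these 11 alone the ratio was lower in S127A than in WT. TIMP2 stood at 3.93 ± 0.0646 times MMP14 in S127A and at 0.987 ± 0.0450 times MMP14 in WT (SD, n = 3 each). These are ratios of transcripts and were not tested.

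**Figure D3:**
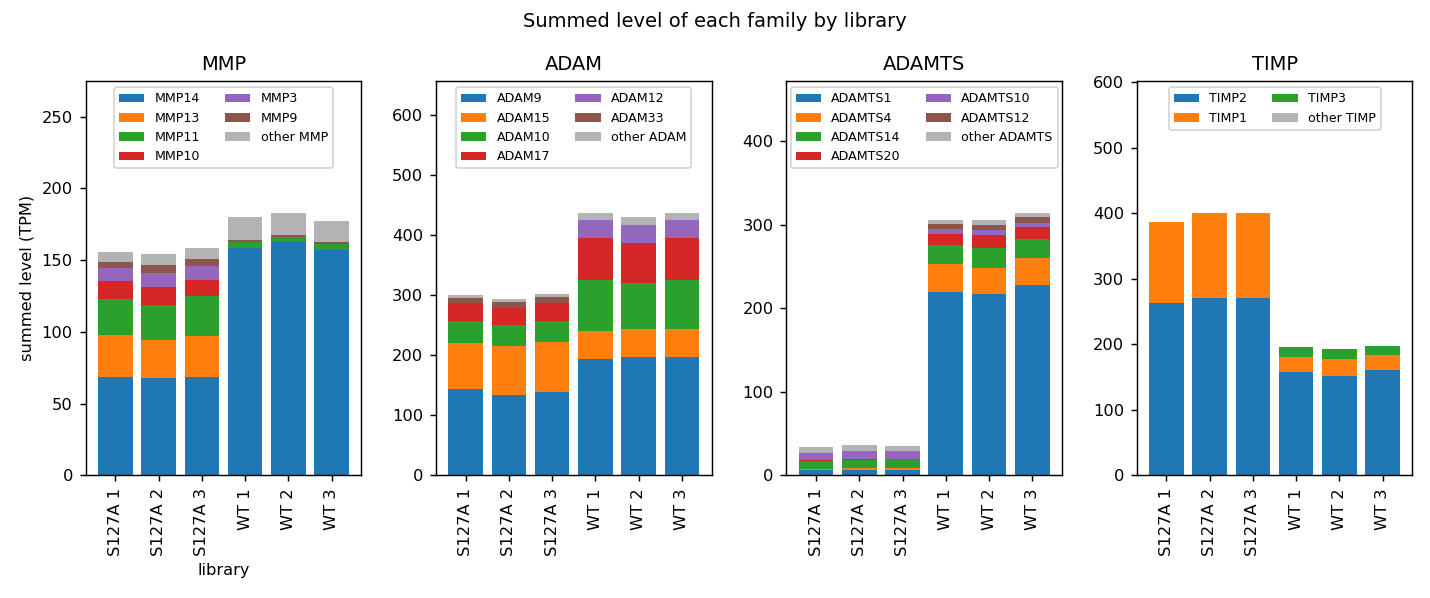
Summed level (TPM, linear axis from 0, scaled per panel) of the MMP, ADAM, ADAMTS and TIMP families in each library, S127A left of WT, stacked by gene. MMP14 fills most of the WT MMP bars and less than that of the S127A bars, ADAMTS1 fills most of the WT ADAMTS bars, and the TIMP bars are higher in S127A, 387 to 401 TPM, than in WT, 192 to 198 TPM.

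Among ADAMs with a working protease domain, 8 of 9 listed genes were tested, and 3 were higher and 5 lower in S127A. Over all tested genes the shares were 40.2% higher and 49.8% lower. The 2 main sheddases fell by like amounts. ADAM10, which cleaves Notch receptors and cadherins, stood at 36.6, 35.2 and 35.1 TPM in S127A and at 85.4, 77.9 and 81.3 TPM in WT (log2 change −1.17, SE 0.0427, adjusted p = 3.91e-10). ADAM17, the TNFα-converting enzyme, stood at 29.6, 27.4 and 29.6 TPM in S127A and at 70.2, 65.6 and 70.3 TPM in WT (log2 change −1.22, SE 0.0463, adjusted p = 5.31e-10). The ratio of ADAM10 to ADAM17 was 1.24 ± 0.0498 in S127A and 1.19 ± 0.0300 in WT. ADAM17 shares 311 exon bases with Iah1 on the opposite strand, which was also lower, at 15.7 TPM in S127A and 85.3 TPM in WT.

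ADAM12 and ADAM19, both meltrins known from muscle, bone and heart development, fell further. ADAM12 stood at 0.56, 0.51 and 0.79 TPM in S127A and at 29.4, 29.5 and 29.3 TPM in WT, a fall of 4.23 on the log2 scale (SE of 0.0751, adjusted p = 1.07e-12). ADAM19 stood at 0, 0.02 and 0 TPM in S127A and at 8.07, 8.91 and 8.83 TPM in WT (log2 change −3.25, adjusted p = 6.57e-12). Neither gene exceeded 1 TPM in any S127A library, so both passed the filter only through WT. ADAM19 carries TGAGTCA 131 bases before its start (chr11:46055841-46055871, plus strand, GRCm38.p6), shown because it is the only matched member that fell and holds the motif:
Adam19: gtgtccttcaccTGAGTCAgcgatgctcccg

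ADAM33, an ADAM of smooth muscle and airway mesenchyme, ran the other way. It stood at 8.46, 10.4 and 9.71 TPM in S127A and at 0.37, 0.73 and 0.42 TPM in WT (log2 change 2.81, SE 0.105, adjusted p = 5.00e-10). ADAM15, an ADAM with an integrin-binding disintegrin domain, averaged 80.5 ± 3.53 TPM in S127A and 46.3 ± 0.11 TPM in WT (log2 change 0.78, adjusted p = 6.31e-09). Antisense or noncoding transcripts annotated on the opposite strand share exon bases with ADAM15, ADAM19, ADAM8 and MMP19. ADAM8, known from leukocytes, averaged 1.69 ± 0.376 TPM in S127A and 1.03 ± 0.0451 TPM in WT (adjusted p = 0.00367). ADAM9, the ADAM with the highest level in both groups, averaged 139 ± 5.65 TPM in S127A and 196 ± 2.36 TPM in WT, a log2 change of −0.49, or −0.38 relative to the median of all tested genes. ADAM9 made up 46.6% ± 1.39 of the summed ADAM level in S127A and 45.1% ± 0.806 in WT (SD, n = 3 each), a difference not tested.

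The ADAMs without a working protease, such as ADAM11, ADAM22 and ADAM23 of the nervous system, were too low to test. ADAM23 stood at 0, 0 and 0.02 TPM in S127A and at 0.94, 1.25 and 0.93 TPM in WT. ADAM11 stood at 0.32, 0.45 and 0.30 TPM in S127A and at 1.19, 1.16 and 0.90 TPM in WT. ADAM18, ADAM22 and ADAM32 averaged under 1 TPM in both groups, as did ADAM28, which has a working protease, and ADAM21 and ADAM30. ADAM2, a sperm surface protein without protease activity, was listed at 0 in all 6 libraries.

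The summed ADAMTS level stood at 33.6, 35.9 and 35.8 TPM in S127A and 306, 306 and 315 TPM in WT. ADAMTS1, an inflammation-induced enzyme that cuts aggrecan and versican and has anti-angiogenic activity, made up 18.9% ± 0.302 of the S127A sum and 71.7% ± 0.623 of the WT sum (SD, n = 3 each). ADAMTS1 (chr16:85793827-85803113, minus strand, mm10) stood at 6.31, 6.89 and 6.67 TPM in S127A and at 219, 218 and 228 TPM in WT. Its log2 change was −4.87 (SE of 0.0431, adjusted p = 1.22e-14). Every S127A value lay far below every WT value.

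The other tested proteoglycan-cutting members fell too, 3 of 3 with ADAMTS1, where 49.8% of all tested genes were lower. Of the 7 listed, 4 were not tested, and ADAMTS20 passed the filter only through WT. ADAMTS4, an aggrecanase, stood at 1.95, 1.90 and 1.82 TPM in S127A and at 33.6, 30.9 and 33.1 TPM in WT (log2 change −3.54, SE 0.0598, adjusted p = 7.32e-13). ADAMTS20, a versicanase needed in mice for melanoblast spread into the skin, stood at 0.51, 0.44 and 0.76 TPM in S127A and at 14.1, 14.7 and 13.6 TPM in WT (log2 change −3.27, SE 0.0855, adjusted p = 2.38e-11). The melanocyte markers were low in the same S127A libraries. ADAMTS5, the neighbour of ADAMTS1 on chromosome 16 with a gap of 53.1 kb, was below the filter, at 0, 0 and 0.01 TPM in S127A and at 1.12, 1.19 and 1.34 TPM in WT. ADAMTS8, ADAMTS9 and ADAMTS15 were too low to test.

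Of the procollagen N-proteinases, which trim the amino ends of fibrillar procollagens, ADAMTS14 alone reached the filter. It stood at 9.57, 9.87 and 10.6 TPM in S127A and at 22.6, 24.2 and 22.6 TPM in WT (log2 change −1.13, SE 0.0569, adjusted p = 6.16e-09). ADAMTS2 averaged 0.24 ± 0.0854 TPM in S127A and 0.12 ± 0.0693 TPM in WT, and ADAMTS3 was listed at 0 in all 6 libraries. ADAMTS12, which cuts cartilage oligomeric matrix protein, stood at 0, 0 and 0.01 TPM in S127A and at 6.19, 6.84 and 6.68 TPM in WT (log2 change −2.91, adjusted p = 1.68e-11).

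ADAMTS10 and ADAMTS6, a related pair linked to fibrillin microfibrils, were the 2 ADAMTS genes that rose. ADAMTS10 averaged 9.62 ± 0.526 TPM in S127A and 5.49 ± 0.454 TPM in WT (log2 change 0.71, adjusted p = 2.95e-06), and ADAMTS6 averaged 3.95 ± 0.195 TPM in S127A and 0.697 ± 0.127 TPM in WT (log2 change 1.55, adjusted p = 9.75e-09). ADAMTS7 averaged 1.47 ± 0.318 TPM in S127A and 1.503 ± 0.15 TPM in WT and did not pass (log2 difference −0.02, adjusted p = 0.831). It passed as higher with quantile normalization alone (0.42, adjusted p = 0.0027; range over 16 alternatives 0.0027 to 0.987). ADAMTS13, the von Willebrand factor protease, stood at 0.20, 0.19 and 0.20 TPM in S127A and at 1.74, 1.98 and 1.31 TPM in WT and was not tested. ADAMTS17 and ADAMTS19 were also too low.

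The ADAMTS-like genes, whose products lack the protease domain and bind matrix, split. ADAMTSL3 stood at 8.47, 7.86 and 8.27 TPM in S127A and was listed at 0 in all 3 WT libraries (adjusted p = 5.68e-12). ADAMTSL2 was listed at 0 in all 3 S127A libraries and stood at 2.51, 2.58 and 2.34 TPM in WT (adjusted p = 1.37e-09). ADAMTSL3 passed the filter only through S127A and ADAMTSL2 only through WT, so both directions were fixed once they were tested. ADAMTSL4, a fibrillin-binding protein, stood at 3.68, 4.30 and 4.81 TPM in S127A and at 14.2, 12.7 and 13.8 TPM in WT (log2 change −1.47, SE 0.0842, adjusted p = 1.86e-08). ADAMTSL5 stood at 20.01, 22.8 and 20.02 TPM in S127A and at 22.4, 19.9 and 21.01 TPM in WT, with overlapping groups (log2 difference −0.01, SE 0.064, adjusted p = 0.863; its sign turned with rescaling). ADAMTSL1 was near 0 in both groups.

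**Figure D4:**
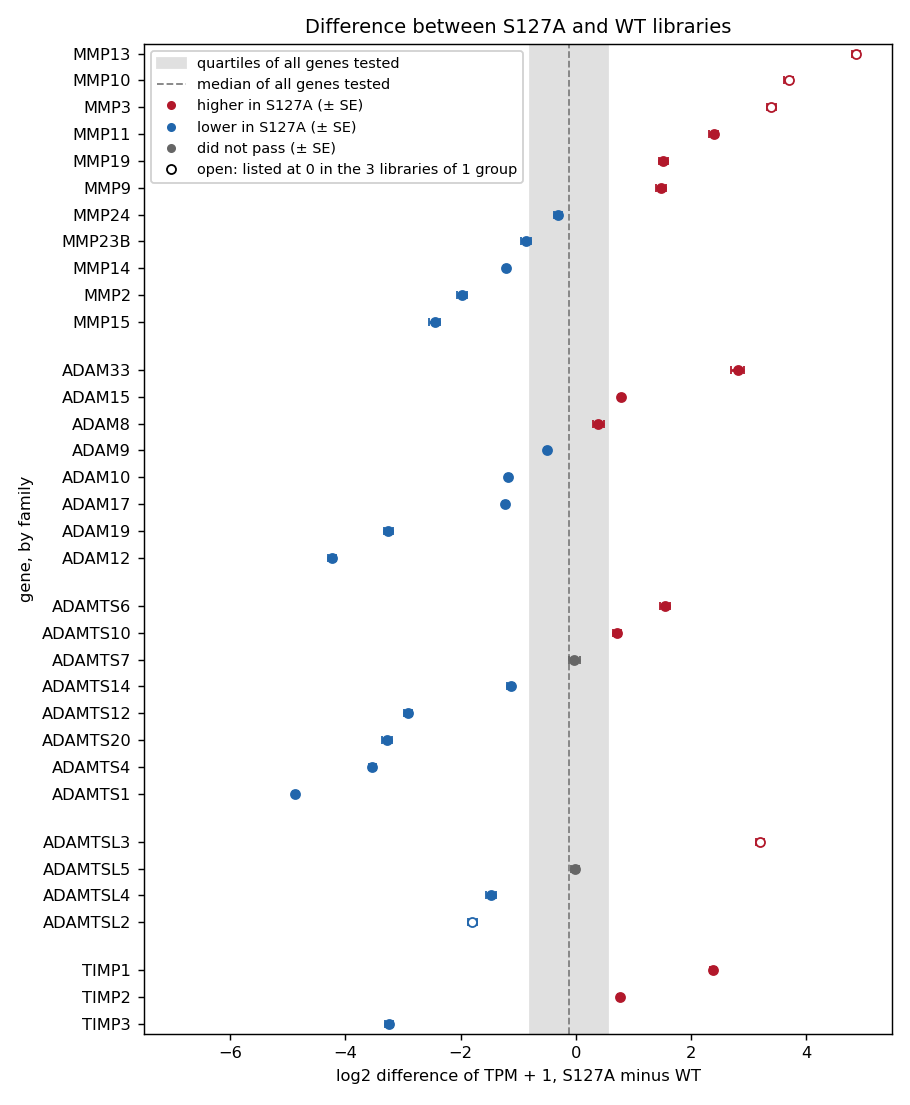
Log2 difference of TPM + 1, S127A minus WT, for each tested gene with its SE as bar, red where higher, blue where lower and grey where the test was not passed, and open where 1 group was listed at 0. The grey band spans the quartiles of all tested genes, −0.79 to 0.57, and the dashed line their median, −0.12. MMP13, MMP10, MMP3, MMP11 and TIMP1 lie right of the band, ADAMTS1, ADAMTS4, ADAM12 and TIMP3 far left of it.

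Genes around these enzymes were read from further lists, whose counts stand against 90.0% of all tested genes changed, 40.2% higher and 49.8% lower. These lists too were chosen with earlier results of these data known. Of the convertases that remove propeptides, PCSK7 averaged 14.1 ± 0.0208 TPM in S127A and 17.7 ± 0.458 TPM in WT (log2 change −0.31, adjusted p = 1.22e-04). FURIN averaged 37.9 ± 1.78 TPM in S127A and 41.5 ± 0.994 TPM in WT (log2 change −0.13, adjusted p = 0.0195), a call lost with TMM factors (−0.01, adjusted p = 0.827; range over 17 alternatives 0.018 to 0.827). It was also lost with quantile normalization (adjusted p = 0.196), at a common total (adjusted p = 0.133), without WT replicate 1 and without S127A replicate 1. PCSK5 and PCSK6 were too low to test.

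Proteins that escort ADAM10 and ADAM17 to the surface changed in 8 of 8 tested, 3 higher and 5 lower, with a median log2 change of −0.80. With 90.0% of all tested genes changed, that all 8 did so is near the background. TSPAN10 and TSPAN15, tetraspanins that bind ADAM10, stood at 0.237 ± 0.115 and 0.263 ± 0.155 TPM in S127A, against 253 ± 11.2 and 39.8 ± 4.61 TPM in WT. Both passed the filter only through WT. TSPAN14 averaged 15.9 ± 1.03 TPM in S127A and 40.9 ± 0.907 TPM in WT, whereas TSPAN5 averaged 28.98 ± 2.18 TPM in S127A and 12.7 ± 0.375 TPM in WT. FRMD8, which stabilises the iRhom-ADAM17 complex, averaged 36.7 ± 1.38 TPM in S127A and 69.3 ± 3.85 TPM in WT. Expression of ADAM10-binding tetraspanins thus differed by member and not in 1 direction.

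Proteins that ADAM10 and ADAM17 release from the cell surface were higher in 18 of 26 tested genes and lower in 8, where 40.2% of all tested genes were higher and 49.8% lower. Their median log2 change was 1.35, against −0.12 over all tested genes. The list was chosen with earlier results of these data known, so the comparison is descriptive only. Some of its genes passed the filter only through 1 group, such as EREG through S127A and JAG1 through WT. The lower count was 7 with TMM factors and 6 with quantile normalization, with 18 higher in each. AXL, a receptor kinase, averaged 878 ± 7.51 TPM in S127A and 7.31 ± 0.437 TPM in WT, and CSF1, a macrophage growth factor, averaged 970.4 ± 14.1 TPM in S127A and 89.6 ± 2.24 TPM in WT. The EGF receptor ligand HBEGF averaged 216 ± 4.95 TPM in S127A and 4.69 ± 0.16 TPM in WT. EREG, a further EGF receptor ligand, averaged 156 ± 5.79 TPM in S127A and 0.0967 ± 0.115 TPM in WT. The prion protein PRNP fell, at 789.9 ± 3.53 TPM in S127A and 3573 ± 55.3 TPM in WT. These levels say nothing of how much protein was shed.

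Matrix substrates and partners of ADAMTS enzymes rose in 5 of 7 tested genes and fell in 2, while 10 of the 17 listed were not tested. COL1A1 and LTBP1 passed the filter only through S127A, and VEGFC and BCAN only through WT, so their directions were fixed once they were tested. COL1A2, a type I collagen chain, averaged 275 ± 6.56 TPM in S127A and 1.41 ± 0.164 TPM in WT. Fibronectin (FN1) averaged 538 ± 13.6 TPM in S127A and 31.7 ± 0.942 TPM in WT, the TGF-beta binding protein LTBP1 averaged 122 ± 4.28 TPM in S127A and 0.3 ± 0.0624 TPM in WT, and COL1A1 averaged 10.7 ± 0.447 TPM in S127A and 0.587 ± 0.0896 TPM in WT. VEGFC, a lymphatic growth factor that ADAMTS3 processes, was listed at 0 in all 3 S127A libraries and averaged 11.1 ± 0.184 TPM in WT. The versican gene VCAN, a substrate of the proteoglycan-cutting members, was too low to test, and averaged 0.497 ± 0.0451 TPM in S127A and 0.293 ± 0.085 TPM in WT.

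Of the other inhibitors and clearance proteins, LRP1, an endocytic receptor that takes up MMP and TIMP complexes, averaged 187 ± 7.81 TPM in S127A and 10.7 ± 0.367 TPM in WT. RECK, a membrane-anchored MMP inhibitor, averaged 2.32 ± 0.125 TPM in S127A and 7.52 ± 0.653 TPM in WT. A2M, TFPI2, SPOCK1, SPOCK2 and SPOCK3 were too low to test. Genes of invadopodia, the protrusions where MMP14 acts, and of MMP docking were lower in 5 of 6 tested genes. BSG, the MMP inducer basigin, averaged 361 ± 9.21 TPM in S127A and 769 ± 28.8 TPM in WT, SH3PXD2B averaged 19.5 ± 0.34 TPM in S127A and 43.5 ± 0.441 TPM in WT, and SRC averaged 67.7 ± 2.87 TPM in S127A and 97.5 ± 1.31 TPM in WT. Cortactin (CTTN) fell by 0.28 on the log2 scale, and CD44, which docks MMP9, was the 1 that rose, by 0.44.

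Other surface and secreted metallopeptidases were higher in 5 of 5 tested, where 40.2% of all tested genes were higher, or in 4 where ANPEP lost its call. Of these, ECE2 passed the filter only through S127A. Of the 12 listed, 7 were not tested, and their low values went both ways. ENPEP was listed at 0 in all 3 S127A libraries and averaged 1.08 ± 0.104 TPM in WT. MEP1A averaged 0.517 ± 0.0611 TPM in S127A and was listed at 0 in all 3 WT libraries. ECE2 stood at 12.2 ± 0.415 TPM in S127A and was listed at 0 in all 3 WT libraries, ECE1, an endothelin-converting enzyme, averaged 16.6 ± 1.32 TPM in S127A and 2.16 ± 0.397 TPM in WT, and BMP1, the procollagen C-proteinase, averaged 27.8 ± 1.16 TPM in S127A and 13.9 ± 0.607 TPM in WT. LNPEP rose by 0.26 on the log2 scale. ANPEP passed narrowly (log2 change 0.21, adjusted p = 0.0488), and over 16 alternatives its adjusted p ran from 2.9e-05 to 0.159. The call was lost with either other pseudocount, without a filter, with robust hyperparameters, with the replicate block and without any 1 library other than WT replicate 3.

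**Figure D5:**
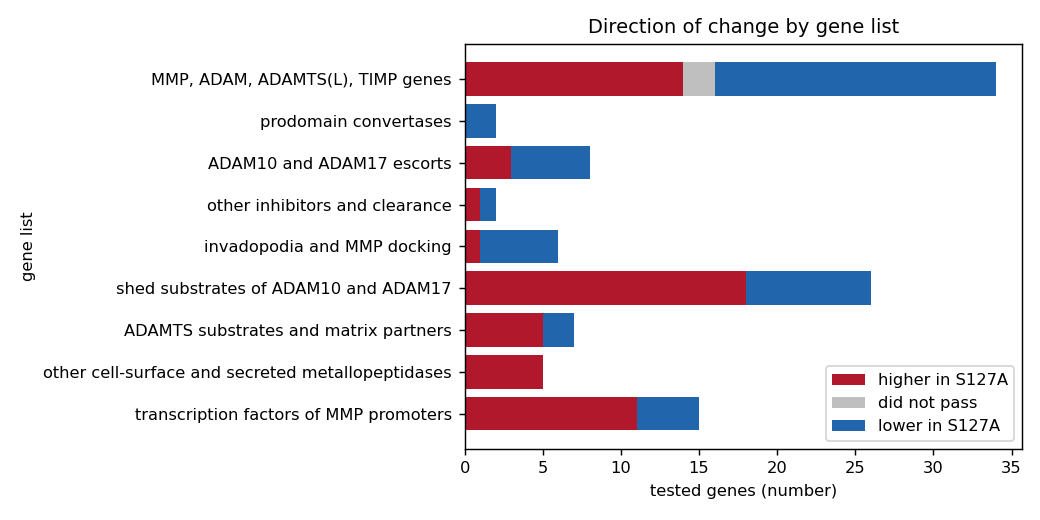
Number of tested genes that were higher in S127A (red), did not pass (grey) or were lower in S127A (blue) in the MMP, ADAM, ADAMTS, ADAMTSL and TIMP genes and in each list around them. The tested members split 14 higher and 18 lower, shed substrates 18 higher and 8 lower, and transcription factors 11 higher and 4 lower.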

How the data were processed

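RNA-seq libraries of 3 S127A and 3 WT samples were grouped by their titles. Gene-level TPM values came from the single table that the authors deposited, per the file headers. Per the submitters' processing notes the genome was mm10. No aligner, quantifier, annotation or strand setting is named there, nor how genes came to have upper-case symbols. Of the 60 members 59 matched a GENCODE M21 (mm10) symbol written in upper case. Without a known strand setting, reads from genes that overlap on opposite strands cannot be told apart, and 7 of 33 tested members with coordinates share exon bases with another protein-coding gene. Not every such overlap or marker is reported here.

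Genes with a mean of at least 1 TPM were fitted together after a log2 transform of TPM plus 1. The test was two-sided, from lmFit and eBayes with trend in limma 3.58.1 (R 4.3.3), adjusted by Benjamini-Hochberg over 10348 genes at 0.05. The fit was tested on simulated data with normal errors, in which few genes changed and genes low in WT were left out. That check therefore does not cover genes listed at 0 in WT or a table where most genes change. Summaries used Python 3.11.15, pandas 2.3.3 and numpy 2.4.6. TMM factors, an alternative, were computed directly on TPM. No count model was run, since the values are TPM. Values in every library are given for members that changed at least 2-fold with at least 5 TPM on average in a group, for the 4 TIMPs, MMP2, MMP9, MMP14, ADAM10 and ADAM17, and for a few low genes chosen after their values were seen. Of each further list up to 5 genes with the smallest adjusted p are named, and VCAN, JUN, JUND and FOS beside them. Members and lists were chosen with earlier results of these data known, and TATAAA was added to the motif search later. Alternatives were pseudocounts of 0.1 and 5, other filters, scalings and variance priors, a replicate block, identical symbols counted once, and leaving out each library. Protein sequences were not used here.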

Additional observations from a re-analysis of the deposited data

How the results depend on the processing

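Of the 34 tested members 31 kept their direction and their side of the threshold in every one of 17 alternatives in which they were fitted, the exceptions being MMP24 (−0.01 after quantile normalization), ADAMTS7 and ADAMTSL5. With a filter at a mean of 5 TPM, which leaves fewer genes to test, 19 members changed, 8 higher and 11 lower, and 5 were at least 2-fold higher. TMM factors and quantile normalization moved the median of all tested genes by 0.12 and 0.11 on the log2 scale. The log2 difference of ADAMTS7 became 0.0490 with TMM, 0.42 after quantile normalization and 0.00917 at a common total. That of ADAMTSL5 became 0.10 with TMM, 0.0725 after quantile normalization and 0.0403 at a common total. The cause was not tested. Both also changed sign when a library was left out: ADAMTS7 ran from −0.124 to 0.0508 and ADAMTSL5 from −0.0707 to 0.0287 over the 6 libraries left out in turn, with no call. Leaving out any library left 32 members changed. Deviations of same-numbered libraries from their group means gave r = 0.117, 0.0174 and 0.0279 across genes. Libraries of different number gave r from −0.0757 to 0.0544. These values do not settle whether the numbers pair the samples, and the main fit used no pairing. A fit with the replicate block called 14 members higher and 18 lower, with no member's call changed. Depth is unknown in TPM, so an entry of 0 sets no upper limit.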
